A study of Homo sapiens with 6 samples.

Results

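The genes described here are the plasminogen activators PLAT and PLAU, the urokinase receptor PLAUR and the serpin inhibitors SERPINE2 and SERPINB2. They were chosen by name, as the rows of the count table whose Entrez identifiers carry these 5 symbols, out of 23459 genes in the table. Counts were measured by 3′ mRNA-Seq in MCF10A cells, a spontaneously immortalised, non-tumorigenic human mammary epithelial line. All 6 libraries carry the genotype mark WT in their description, and all values come from this single line. The siCtrl group (3 libraries) received non-targeting siRNA, and the siYAP/TAZ group (3 libraries) received siRNA against YAP and its homolog TAZ (encoded by WWTR1), each at 20 nM and in the same medium with horse serum, insulin, hydrocortisone, cholera toxin and EGF. YAP and TAZ are coactivators that drive TEAD target genes when Hippo signalling is low.

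Plasminogen is a circulating zymogen that tissue-type activator (PLAT, tPA) or urokinase (PLAU, uPA) cleaves to plasmin, a broad protease of fibrin and matrix proteins. Urokinase works mostly at the cell surface, held by the glycolipid-anchored receptor PLAUR (uPAR), whereas tPA acts best on fibrin or on annexin-bound surfaces. Serpins trap the activators in inactive complexes, and epithelial cells use this system in migration, wound closure and mammary gland remodelling.

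Library totals ranged from 3175149 to 4317286 counts, and levels are given in CPM (counts per 1000000 counts of the TMM-normalised library). A count of 0 left room for 3 counts, or 0.68 to 0.992 CPM by library. For siCtrl replicate 2 and siYAP/TAZ replicate 2, the title and genotype entry name the opposite group to the description that served here as the label. YAP1 was at 189, 204 and 210 CPM in siCtrl and at 116, 118 and 112 CPM after depletion, and WWTR1 was at 109, 109 and 102 CPM against 70.5, 67.1 and 59.8 CPM, so 57.5% and 61.8% of the control means remained. The log2 fold changes were -0.80 and -0.69 (edgeR adjusted p-values of 0.0138 and 0.0311), past the threshold of 0.05 in 12 and 10 of 16 alternative analyses, and lower in 3 of 3 pairs for each target. Both conflicting libraries lay on the side of their description for both targets, and the tests of the members, of these targets and of the named list genes were also run without them. Of the controls, siCtrl replicate 2 stood apart from the other siCtrl libraries, with a chi-square per degree of freedom of 17.4 and 14.1 against them, where the other siCtrl pair had 5.37, and its lowest value, 8.57, was against siYAP/TAZ replicate 2. The labels do not say whether libraries of a group came from separate cultures, and p-values measure only the spread between these libraries. The 10 epithelial markers, such as KRT5 and CDH1, had counts in every library. Their summed level was 3184 to 3352 CPM in siCtrl and 2358 to 2498 CPM in siYAP/TAZ, and its part in the results below was not tested. Of 8 fibroblast, 7 endothelial and 7 leukocyte markers, 7, 6 and 5 had at most 20 counts in every library, among them PTPRC, CDH5 and CD3E with at most 10, 2 and 1 counts and COL1A2, COL3A1, THY1, CLDN5 and CD79A with 0. The others were PDGFRA (154 to 183 CPM), CSF1R (203 to 290 CPM), PECAM1 (at most 29 counts) and CD14 (at most 23 counts). The summed levels of the fibroblast, endothelial and leukocyte lists were 159 to 173, 5.74 to 7.29 and 210 to 270 CPM in siCtrl and 158 to 184, 8.61 to 15.9 and 247 to 295 CPM in siYAP/TAZ.

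PLAT rose, PLAUR and SERPINE2 were lower in every pair of libraries, PLAU went in no consistent direction and SERPINB2 was not detectable. In the quasi-likelihood test of edgeR with all libraries and no replicate block, 1 of the 4 tested members passed a Benjamini-Hochberg adjusted p of 0.05, against 1.96% of the 12510 genes tested, and 2 of the 4 had an unadjusted p under 0.05, against 17.7%. The member past the adjusted threshold was PLAT, higher in a test where 0.743% of all genes were higher, and 0 members were lower, against 1.22% of all genes. With the replicate number as a block, 3 of the 4 passed, against 10.1% of all genes. PLAT was then higher, against 4.66% of genes, and PLAUR and SERPINE2 were lower, against 5.44%. Replicate numbers were taken to pair the libraries, which was weakest for number 3, so each result that the block changed is given in both forms.

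**Figure D1:**
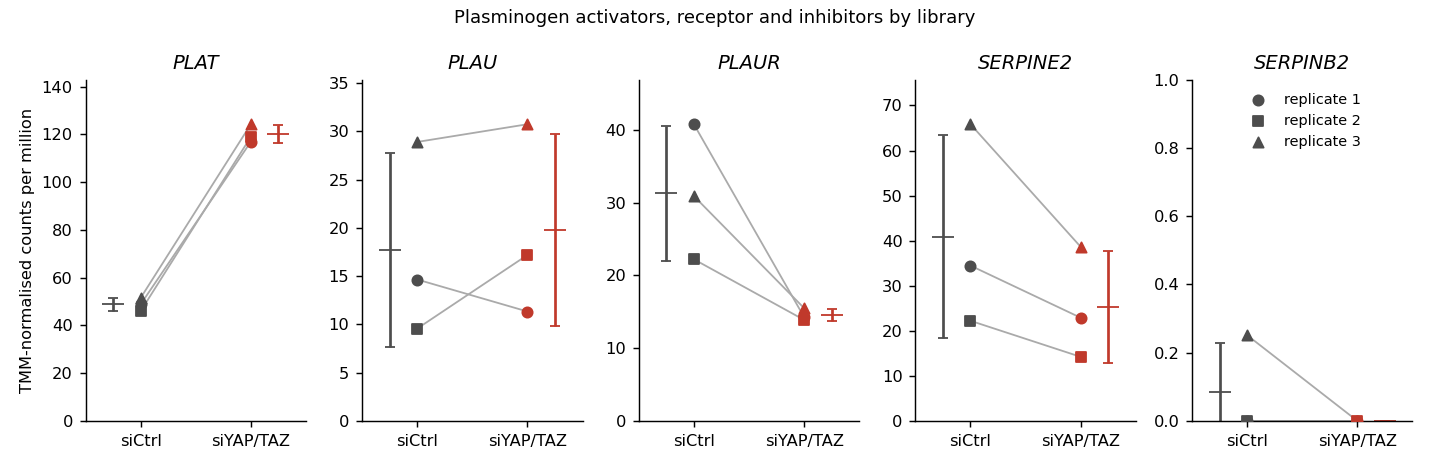
Level in TMM-normalised CPM (y axis, linear, from 0) of each member in the siCtrl and siYAP/TAZ libraries (x axis). Symbols mark the replicate number, grey lines join libraries of the same number, and the horizontal ticks with bars are the mean and SD of 3 libraries. PLAT lies at 46.0 to 51.5 CPM in siCtrl and 117 to 124 CPM in siYAP/TAZ, the lines of PLAUR and SERPINE2 all fall, those of PLAU cross, and SERPINB2 stays at 0.251 CPM or less.

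The activators were examined before the receptor and the inhibitors. PLAT (Entrez 5327; GRCh37 chromosome 8, 42032236 to 42065227, minus strand), the gene of tissue-type plasminogen activator, had 170, 149 and 205 counts in siCtrl replicates 1, 2 and 3 and 516, 360 and 457 counts in siYAP/TAZ. Scaled to the normalised library sizes, these were 48.8, 46.0 and 51.5 CPM in the controls and 117, 119 and 124 CPM after depletion. The lowest depleted library was above the highest control library, and the libraries of each group lay close together. In such bulk samples, more cells that express a gene and more RNA of it per cell cannot be told apart. The means were 48.8 ± 2.77 and 120.1 ± 3.79 CPM (SD, n = 3), which is 2.46-fold. The log2 fold change was 1.30 (SE 0.13, 95% interval 1.02 to 1.58), its edgeR adjusted p was 0.00315, and 5 of the 12510 tested genes had a smaller p. Within pairs of the same replicate number the difference in log2 CPM was 1.26, 1.37 and 1.27. The call held when any single library was left out, with log2 fold changes of 1.26 to 1.34, and without both conflicting libraries it was 1.27 (adjusted p-value 0.00136). The adjusted p lay between 1.10e-10 and 0.905 over all 16 alternatives in edgeR or DESeq2, and grouping by title was the only alternative in which PLAT did not pass, with a log2 fold change of 0.40. GENCODE lists no other gene that overlaps PLAT.

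**Figure D2:**
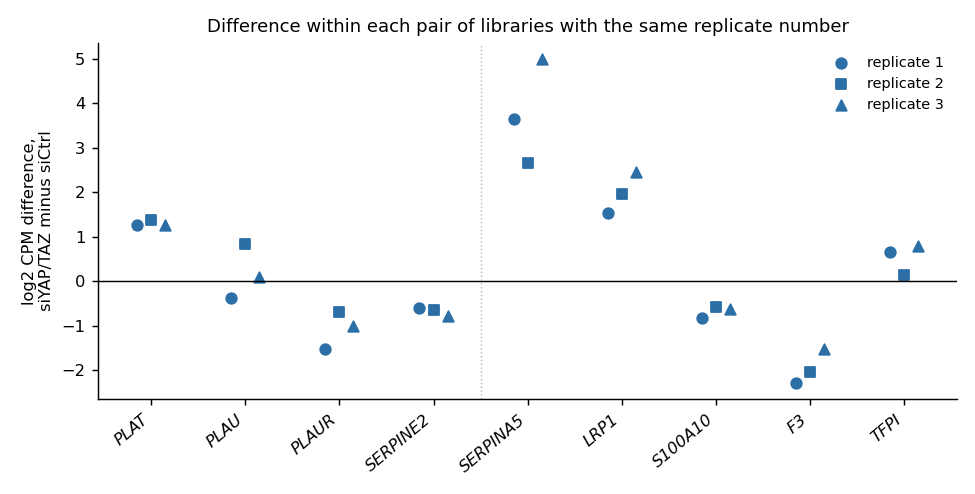
Difference in log2 CPM between the siYAP/TAZ and siCtrl libraries of the same replicate number (y axis) for the 4 tested members, left of the dotted line, and for 5 further genes of plasminogen activation and surface coagulation (x axis). Each symbol is 1 pair; PLAT lies between 1.26 and 1.37, SERPINE2 between -0.77 and -0.59, and the pairs of PLAU lie on both sides of 0.

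PLAU (Entrez 5328; GRCh37 chromosome 10, 75668935 to 75677254, plus strand) encodes urokinase and is used in the study as a canonical AP-1 target gene. Controls had 51, 31 and 115 counts and depleted libraries 50, 52 and 113 counts, which were 14.6, 9.57 and 28.9 CPM and 11.3, 17.2 and 30.7 CPM. Replicate 3 was the highest library in both groups, and the groups overlapped over nearly their whole range. The means were 17.7 ± 10.0 and 19.8 ± 9.95 CPM (SD, n = 3). The log2 fold change was 0.14 (SE 0.44, edgeR adjusted p 0.904), and its 95% interval of -0.86 to 1.13 leaves changes of either sign possible. The pairs gave -0.37, 0.85 and 0.089 on the log2 scale. The sign was the opposite without siCtrl replicate 2 (-0.15), without siYAP/TAZ replicate 3 (-0.33) and without both libraries numbered 2 (-0.076), and the value was 0.70 with siCtrl replicate 3 left out and 0.43 without siYAP/TAZ replicate 1. PLAU did not pass under any of the 16 alternatives, with adjusted p-values of 0.592 to 0.994.

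The PLAU counts cannot be assigned to PLAU alone. The long noncoding gene C10orf55 (Entrez 414236; GRCh37 chromosome 10, 75669727 to 75682535, minus strand) shares 7528 bp of its span with PLAU on the other strand, and 915 bp are exonic in both genes. The C10orf55 row held 54, 36 and 121 counts in the controls and 53, 57 and 118 after depletion, which is 3 to 6 counts more than PLAU in every library. Its log2 fold change was 0.12 (SE 0.42, edgeR adjusted p 0.910). Whether strand was used in counting is not stated, and reads of the 2 genes cannot be told apart in this table.

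**Figure D3:**
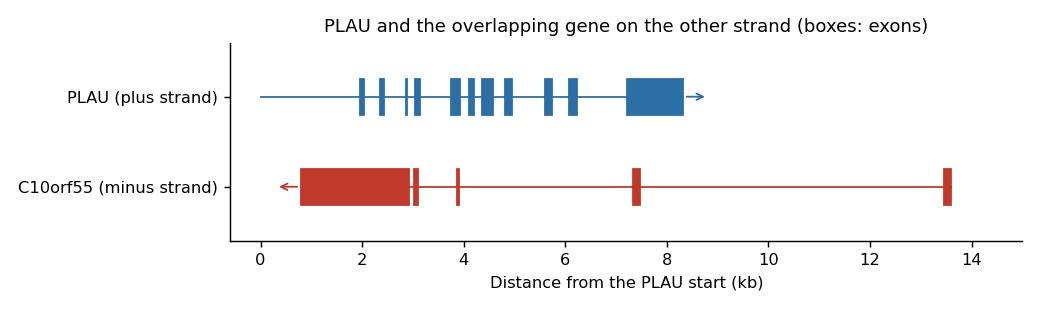
Map of PLAU and C10orf55, with the distance from the PLAU start in kb (x axis), exons of the canonical GENCODE transcripts as boxes, gene spans as lines and arrows for the direction of transcription. The last exon of PLAU, from which a 3′ library reads, lies inside the span of C10orf55, and a C10orf55 exon lies within it.

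The share of PLAT in the activator counts was then computed for each library. PLAT took 76.9% (95% Wilson interval 70.9 to 82.0), 82.8% (76.6 to 87.6) and 64.1% (58.7 to 69.1) of the summed PLAT and PLAU counts in siCtrl replicates 1, 2 and 3. In siYAP/TAZ it took 91.2% (88.5 to 93.2), 87.4% (83.8 to 90.2) and 80.2% (76.7 to 83.2). The share was higher in siYAP/TAZ in each of the 3 pairs, but the groups overlapped, since siCtrl replicate 2 lay above siYAP/TAZ replicate 3. These intervals cover counting error only, and the PLAU part of the sum carries the reads shared with C10orf55.

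PLAUR (Entrez 5329; GRCh37 chromosome 19, 44150247 to 44174699, minus strand), the gene of the urokinase receptor, had 142, 72 and 123 counts in siCtrl and 63, 42 and 57 counts in siYAP/TAZ. These were 40.8, 22.2 and 30.9 CPM in the controls and 14.3, 13.9 and 15.5 CPM after depletion. Every depleted library was below every control library, and the spread was much wider in siCtrl than in siYAP/TAZ. The groups of PLAT and PLAUR did not overlap, as was the case for 22.1% of all tested genes, 11.1% lower and 11% higher. PLAUR means were 31.3 ± 9.29 and 14.6 ± 0.844 CPM (SD, n = 3), the latter being 46.5% of the former. The log2 fold change was -1.10 (SE 0.24, 95% interval -1.65 to -0.56). Its edgeR adjusted p was 0.0535, which did not pass, and with the replicate block it was 0.00964. The pairs differed by -1.51, -0.68 and -0.996 on the log2 scale, the smallest difference being that of replicate 2. The adjusted p was 0.00646 with DESeq2, by which 4.73% of genes passed and 2.65% were lower. In edgeR it was 0.00358 without siCtrl replicate 2, where 12.3% of genes passed, and 0.00855 without both conflicting libraries, where 9.29% did. It ranged from 4.77e-05 to 0.898 over the 16 alternatives, and 7 of them passed. PLAUR is in a set of YAP/TAZ target genes that the study used. That set may rest on these libraries, so the direction of PLAUR here is not taken as independent of it.

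The inhibitor SERPINE2 (Entrez 5270; GRCh37 chromosome 2, 224839762 to 224904035, minus strand) encodes protease nexin-1, a secreted serpin that traps thrombin, urokinase and tPA. It had 120, 72 and 262 counts in the controls and 101, 43 and 142 after depletion, which were 34.5, 22.2 and 65.8 CPM and 22.9, 14.2 and 38.6 CPM. The groups overlapped, with replicate 3 high and replicate 2 low in both of them. The means were 40.8 ± 22.5 and 25.2 ± 12.4 CPM (SD, n = 3). Without the block the log2 fold change was -0.69 (SE 0.42, 95% interval -1.64 to 0.25) and did not pass (edgeR adjusted p 0.428). Within pairs the difference was -0.59, -0.64 and -0.77, with a mean of -0.67 ± 0.092 (SD, n = 3 pairs). With the replicate block the log2 fold change was -0.67 (SE 0.16) and the edgeR adjusted p was 0.0242. With both libraries numbered 2 left out, the edgeR adjusted p was 0.182 without the block, where 9.29% of genes passed. It was 0.00237 with the block, in a fit added after seeing the data by which 24.0% of genes passed. Over the 16 alternatives it ranged from 0.00237 to 0.917, and only the 2 blocked fits passed. Without the block and without siCtrl replicate 3 the log2 fold change was -0.16, and without siYAP/TAZ replicate 3 it was -1.13. PLAT, PLAUR and SERPINE2 went the same way in 3 of 3 pairs, as did 46.1% of all tested genes, 22.8% lower and 23.3% higher.

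Promoter windows of the 2 members that were lower in every pair are shown because AP-1 and TEAD, the factors that the study connects with YAP, are known for short recognition letters that can be searched in them. The windows hold 250 bases before and 50 bases after a RefSeq start site (build GRCh38.p14), written 5′ to 3′ on the gene's strand. They were searched on both strands for TGANTCA (AP-1, the same letters on either strand) and GGAATG (TEAD), which do not overlap each other, and matches are in capitals.
PLAUR, chr19:43670120-43670419, minus strand: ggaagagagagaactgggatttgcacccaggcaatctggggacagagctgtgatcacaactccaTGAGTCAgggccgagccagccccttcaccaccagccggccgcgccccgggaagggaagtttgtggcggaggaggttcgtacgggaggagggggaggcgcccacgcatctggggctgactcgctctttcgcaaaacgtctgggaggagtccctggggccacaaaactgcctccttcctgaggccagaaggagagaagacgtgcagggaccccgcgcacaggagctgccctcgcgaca
SERPINE2, chr2:224038591-224038890, minus strand: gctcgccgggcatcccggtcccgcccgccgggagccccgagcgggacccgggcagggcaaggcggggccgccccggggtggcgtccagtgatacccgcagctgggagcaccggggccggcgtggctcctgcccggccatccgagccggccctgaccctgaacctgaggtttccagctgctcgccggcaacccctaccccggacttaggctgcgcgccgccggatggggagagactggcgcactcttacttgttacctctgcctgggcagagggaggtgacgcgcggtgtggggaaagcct
SERPINE2, chr2:224031429-224031728, minus strand: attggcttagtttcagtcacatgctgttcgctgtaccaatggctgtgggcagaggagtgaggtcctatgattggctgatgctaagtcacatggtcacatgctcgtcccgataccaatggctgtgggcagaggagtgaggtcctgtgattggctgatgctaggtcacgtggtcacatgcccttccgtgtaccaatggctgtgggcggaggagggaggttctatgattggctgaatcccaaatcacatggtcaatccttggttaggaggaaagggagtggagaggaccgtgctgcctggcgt
The PLAUR window held 1 match, TGAGTCA, which begins 186 bases before the start site, and both SERPINE2 windows held 0 matches to either motif. RefSeq gave windows for 4 of the 5 members. The 2 PLAU windows held 0 matches, and that of SERPINB2 held 1 AP-1 match, TGAATCA, 102 bases before its start site. Of all 35116 windows of this length, 7.71% held TGANTCA and 14.0% held GGAATG. Counted by gene, 9.37% and 16.7% of 27305 genes had a window with them. So these letters are common, and a match is not a measured binding site.

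SERPINB2 (Entrez 5055; GRCh37 chromosome 18, 61538926 to 61571122, plus strand) encodes plasminogen activator inhibitor 2, a mostly intracellular serpin. The control libraries held 0, 0 and 1 counts and the depleted libraries 0 each. Every library was under the limit of 3 counts, the low-count filter removed the gene, and no change in it could be detected with these totals.

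**Figure D4:**
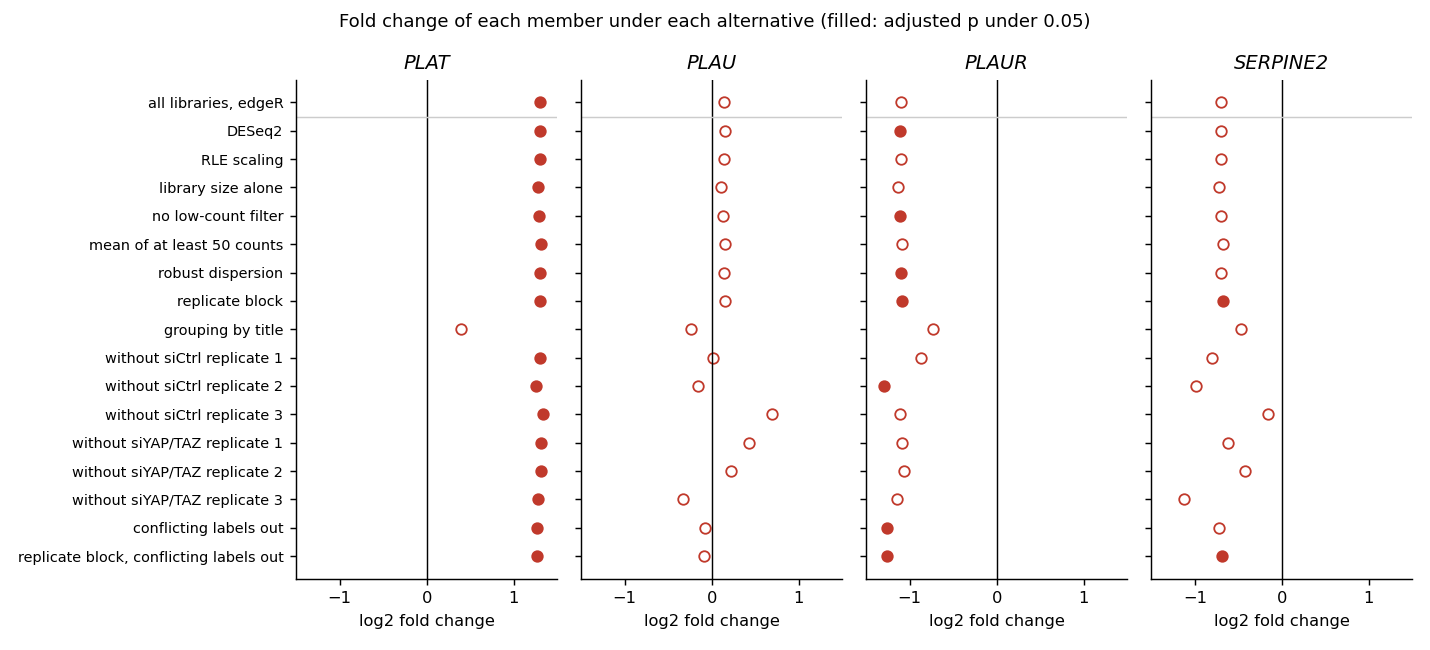
Log2 fold change (x axis) of each tested member with all libraries and under the 16 alternatives (y axis), with filled points where the adjusted p was under 0.05. PLAT is filled in all settings but the grouping by title, PLAUR stays below 0 and is filled in 7 alternatives, SERPINE2 is filled in the 2 fits with the replicate block, and PLAU lies on both sides of 0 with no filled point.

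In these 3′ libraries reads come from the transcript end and their number does not scale with transcript length, so levels in CPM were set side by side between members. In siCtrl the order of mean levels was PLAT (48.8 CPM), SERPINE2 (40.8 CPM), PLAUR (31.3 CPM) and PLAU (17.7 CPM), followed by SERPINB2. Neighbours in this order had overlapping ranges, except that SERPINB2 lay below all others. In siYAP/TAZ, PLAT (120.1 CPM) was above every other member in each library. SERPINE2 (25.2 CPM), PLAU (19.8 CPM) and PLAUR (14.6 CPM) followed with overlapping ranges. The PLAU level cannot be told apart from that of C10orf55, so the place of PLAU in either order is uncertain.

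For each tested member, the genes whose log2 CPM followed it most closely over the 6 libraries were listed by Pearson's r, among 9782 genes of at least 10 CPM on average. All 6 points share their libraries and the 2 groups, and the values are given as a description. PLAT was followed by ZNF12 (r = 0.998), AOPEP (0.992) and LAMA2 (0.990). ZNF12, a zinc finger gene, had a log2 fold change of 0.50 (edgeR adjusted p 0.119) and did not pass, while LAMA2 encodes the laminin α2 chain and rose from 13.7 to 27.3 CPM (log2 fold change 0.99, edgeR adjusted p 0.0313). AOPEP, which encodes an aminopeptidase, rose from 58.4 to 98.1 CPM (0.75, adjusted p 0.0225), and overlaps FANCC on the other strand. PLAUR was followed by MRPL47 (0.993), FILIP1 (0.992) and PHLDA1 (0.992). MRPL47, a mitochondrial ribosomal protein gene, and FILIP1 did not pass, with log2 fold changes of -0.28 and -0.68 (edgeR adjusted p 0.343 and 0.159). PHLDA1, a pleckstrin homology-like domain gene, fell from 119.5 to 50.3 CPM (-1.25, edgeR adjusted p 0.0168). SERPINE2 was followed by SLC35H1 (0.992) and TUBA1A (0.986), among others. Neither SLC35H1 (-0.26, edgeR adjusted p 0.641) nor the α-tubulin gene TUBA1A (-0.43, 0.634) passed. PLAU was followed by RSL24D1 (0.997), RNF207 (0.981) and PIGG (0.964), which had log2 fold changes of 0.026, -0.012 and 0.074.

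The other genes of plasminogen activation were taken from a list of 22. Of these, 14 were tested, with a median log2 fold change of 0.093, where the median of all tested genes was -0.00093. Past the edgeR threshold without the block, 2 were higher and 0 lower, against 0.743% and 1.22% of all genes. Of these 14, SERPINA5 alone had every library of only 1 group above the cutoff of the low-count filter (2.82 CPM), as did 6.24% of all tested genes, and such a gene can pass the filter because it differs. Among the other 13 the median was 0.056 and 1 was higher. The plasminogen gene PLG had 0 or 1 count in each library. SERPINA5, the protein C inhibitor that also inhibits urokinase, was at 1.72, 5.25 and 1.26 CPM in the controls, from 6, 17 and 5 counts, and at 21.8, 33.4 and 40.3 CPM after depletion. The log2 fold change was 3.56 (SE 0.45, edgeR adjusted p 0.00898), and without a low-count filter the adjusted p was 6.54e-05. It was 0.0129 with a filter at a mean of at least 50 counts, which SERPINA5 reached through siYAP/TAZ counts of 96, 101 and 148. Both p-values from filtered fits depend on the group where the gene is high and are not taken as support. The size of the fold change rests on few control counts, with 4.39 when siCtrl replicate 2 was left out. The pairs differed by 3.66, 2.67 and 5.00 on the log2 scale. Its adjusted p was 0.0640 if siCtrl replicate 3 was left out and 0.0675 without siYAP/TAZ replicate 3. The alternatives spanned 1.84e-12 to 0.905.

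LRP1, the endocytic receptor that clears complexes of activators and serpins, rose from 4.31, 6.48 and 4.52 CPM to 12.5, 25.5 and 25.02 CPM, with a log2 fold change of 2.03 (SE 0.34, edgeR adjusted p 0.0221). The call was lost when siCtrl replicate 1 (0.0780) or 3 (0.135) or siYAP/TAZ replicate 2 (0.0808) or 3 (0.132) was left out, in a range of 1.48e-05 to 0.934 over 15 alternatives. LRP1 spans 57522266 to 57607144 of chromosome 12 (GRCh37), and 3657 bp of this overlap STAT6 on the other strand. STAT6 had 211 to 261 counts in siCtrl and 249 to 423 in siYAP/TAZ. Whether STAT6 reads enter the LRP1 counts was not tested.

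The plasminogen-binding surface proteins S100A10, ANXA2 and ENO1 were at lower mean levels in the depleted group, and S100A10 passed the test with the replicate block. S100A10, the partner of annexin A2 in a complex that binds tPA and plasminogen, was at 389, 319 and 467 CPM in the controls and 218, 214 and 302 CPM after depletion. The groups did not overlap, and the log2 fold change was -0.68 (SE 0.19). Its edgeR adjusted p was 0.103 without the block and 0.00394 with it, and the alternatives spanned 5.46e-06 to 0.898. ANXA2 was at 772 ± 169 and 590 ± 136 CPM and the plasminogen-binding enolase ENO1 at 1115 ± 145 and 871 ± 73.6 CPM (SD, n = 3), and their edgeR adjusted p-values of 0.379 and 0.275 did not pass, nor did those with the block (0.0606 and 0.104). Reads of ANXA2 and ENO1 may be shared with processed pseudogene copies. With the replicate block 2 genes of the list were higher, SERPINA5 included, and 1 was lower, against 4.66% and 5.44% of all genes.

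Of 12 other clade B serpins, the family of SERPINB2, 6 were tested, with a median log2 fold change of -0.79. None passed in edgeR or DESeq2, where 1.96% and 4.73% of all genes did. At an unadjusted edgeR p under 0.05 there was 1, against 17.7% of all genes. With the replicate block 3 were lower, against 5.44%. SERPINB3 had every library of only 1 group above the filter's cutoff, siCtrl, where its mean was higher. Of the other 5, 2 were lower with the block. SERPINB3 and SERPINB4, serpins of squamous epithelia, were highest in the 2 libraries numbered 2, with 32.4 and 14.2 CPM of SERPINB3 in siCtrl and siYAP/TAZ and 56.8 and 33.4 CPM of SERPINB4. In the other libraries SERPINB3 was at 1.09 to 6.61 CPM and SERPINB4 at 4.08 to 12.8 CPM. With the block their adjusted p-values in edgeR were 0.0126 and 0.0300, and their reads are uncertain because the 2 genes are near-identical copies. The blocked value of SERPINB3 also depends on that filter and is not taken as support. Without filter and block its edgeR adjusted p was 0.348. Without the block and without siCtrl replicate 2 the log2 fold changes were -0.26 for SERPINB3 and 0.32 for SERPINB4, against -1.44 and -0.91 with all libraries. SERPINB1, an inhibitor of neutrophil elastase, was at 62.9, 141 and 59.3 CPM in the controls and 48.7, 56.5 and 40.5 CPM after depletion, with edgeR adjusted p-values of 0.210 without and 0.0249 with the block. SERPINB5 (maspin), the most abundant of the list, was at 266 ± 51.6 and 331 ± 96.8 CPM (SD, n = 3), and SERPINB6 was at 25.5 ± 1.19 and 22.5 ± 1.36 CPM, with adjusted p-values of 0.515 and 0.621.

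Coagulation at the cell surface supplies thrombin and fibrin, the partner reactions of plasminogen activation. Of 11 such genes 8 were tested, with a median log2 fold change of -0.084. F2R had every library of only 1 group above the filter's cutoff, and the median of the other 7 was -0.16. None of the 8 passed in edgeR without the block or in DESeq2, where 1.96% and 4.73% of all genes did. At an unadjusted edgeR p under 0.05 there were 2, against 17.7% of all genes. With the block 1 was lower and 1 higher, against 5.44% and 4.66% of all genes. F3, the gene of tissue factor that starts coagulation, was at 412, 105 and 216 CPM in the controls and 84.3, 25.8 and 75.3 CPM after depletion. Every depleted library was below every control library, and replicate 2 was the lowest in both groups. The log2 fold change was -1.97 (SE 0.51), and -1.37 without siCtrl replicate 1, with an edgeR adjusted p of 0.0836 without the block and 0.000117 with it, and the alternatives spanned 5.77e-12 to 0.898. TFPI, the inhibitor of the tissue factor pathway, was at 188, 240 and 181 CPM in the controls and 298, 263 and 316 CPM after depletion, a log2 fold change of 0.53 (SE 0.15) with edgeR adjusted p-values of 0.108 without and 0.0350 with the block, in a range of 4.64e-06 to 0.898. TFPI is overlapped by an antisense gene, CALCRL-AS1, on the other strand. PROCR, the endothelial protein C receptor, was at 54.1 ± 8.47 and 39.5 ± 11.8 CPM (SD, n = 3), with an adjusted p of 0.334, and it overlaps MMP24OS on the other strand.

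**Figure D5:**
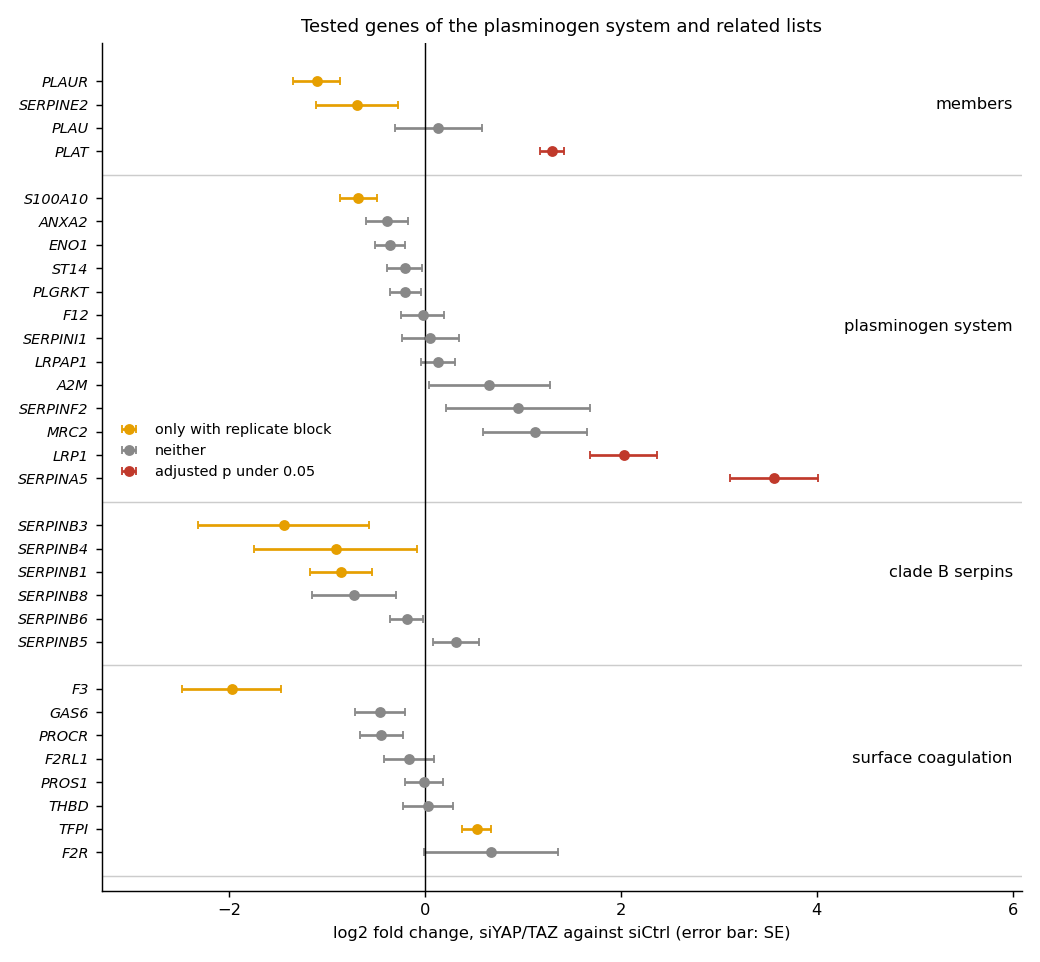
Log2 fold change of siYAP/TAZ against siCtrl with its standard error (x axis) for the tested members and the tested genes of the 3 lists that are reported (y axis), from the edgeR fit without the block. Red marks an adjusted p under 0.05, orange an adjusted p under 0.05 only with the replicate block, and grey neither. PLAT, LRP1 and SERPINA5 are red, SERPINA5 having passed the low-count filter through siYAP/TAZ alone. Orange marks 8 genes, of which TFPI alone was higher.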

How the data were processed

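3′ mRNA-Seq libraries (QuantSeq 3′ mRNA-Seq FWD kit) of MCF10A cells were analysed, 3 siCtrl and 3 siYAP/TAZ. The authors deposited raw counts per Entrez gene, without normalisation. The submitters' processing notes name cutadapt 4.2, Bowtie2 2.3.5.1 and hg19. The gene annotation and the use of strand in counting are not given in the sources used here. Groups and replicate numbers were taken from the description field, the same text as the columns' names.

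Counts were tested with edgeR 4.0.16 (R 4.3.3; quasi-likelihood F test on group alone, after TMM scaling and the default filter on low counts, with Benjamini-Hochberg adjustment over 12510 genes holding 99.5% of counts), and the script was tested on simulated data. CPM are TMM-normalised. The low-count filter kept 4 of the 5 members. Library totals of 3175149 to 4317286 set the precision. No 2 libraries were identical, and replicates differed by more than sampling noise. Alternatives were scaling by RLE or by library size alone, DESeq2 1.42.0, other filters, robust dispersion, the replicate block, single libraries left out, grouping by title and both conflicting libraries left out. The blocked fit without both was added after seeing the data. By it 24.0% of genes passed, and it gave the lowest adjusted p in the ranges of PLAUR, SERPINE2, S100A10, LRP1, F3 and TFPI. Deviations from group means correlated between same-numbered libraries with r of 0.42, 0.35 and 0.13, and between differently numbered ones with -0.36 to 0.045. Such deviations cancel within a group, so positive values for same numbers force negative ones elsewhere, and these add no separate support. The check used the same libraries as the tests. Each same-number value was over a set minimum of 0.1, so the numbers from the description field were taken to pair the libraries. For number 3 this is weak. The chi-square per degree of freedom of siCtrl replicate 3 was 21.4 against siYAP/TAZ replicate 3 and 21.2 against siYAP/TAZ replicate 1.

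The members and lists were chosen with earlier results of these data known. Named genes were the members, YAP1 and WWTR1, list genes past the threshold with or without the block, the 3 most abundant tested genes of each list, and the 3 genes most like each member. Of the genes these rules and lists take in, 2 are not reported here by name. Symbols for 23308 IDs and promoter windows came from RefSeq (GRCh38.p14), and gene coordinates from GENCODE 44 on GRCh37, the same coordinates as hg19.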

Additional observations from a re-analysis of the deposited data

How the results depend on the processing

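The number of genes past the threshold, 245 with all libraries, was 592 with DESeq2, 556 without the low-count filter, 1263 with the replicate block, 1183 without both libraries with conflicting labels, 3060 with the block and without those libraries, and 0 when grouped by title in edgeR (464 at an unadjusted p under 0.05). With 1 library left out it was 16 to 1579: 92, 1579 and 16 without siCtrl replicates 1, 2 and 3, and 71 and 18 without siYAP/TAZ replicates 2 and 3. In the same fits, the number of members past it, 1 with all libraries, was 2 with DESeq2, without the filter, with robust dispersion and without the conflicting libraries, 3 with the block and with the block without those libraries, 0 by title, and 1 to 2 with 1 library left out, 2 being without siCtrl replicate 2. For plasminogen system genes it was 2 with all libraries, 1 at a mean of at least 50 counts, 0 by title, 6 with the block without the conflicting libraries, and 0 to 3 with 1 library left out. For clade B serpins it was 0, and 3 with the block, 1 without the conflicting libraries and 5 with both. For surface coagulation genes it was 0, and 1 without the filter, 2 with the block, 2 without the conflicting libraries, 3 with both, and 0 to 2 with 1 library left out.

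Direction was reversed under grouping by title for PLAU (-0.24), C10orf55 (-0.24), SERPINB1 (0.36), SERPINB3 (0.36) and SERPINB4 (0.25). It was reversed without siCtrl replicate 2 for PLAU (-0.15), C10orf55 (-0.14) and SERPINB4 (0.32), without siYAP/TAZ replicate 3 for PLAU (-0.33) and C10orf55 (-0.32), and without siCtrl replicate 1 for C10orf55 (-0.0078). Without the conflicting libraries it was reversed for PLAU (-0.076) and C10orf55 (-0.084), and for both with the block as well (-0.088 and -0.095). With 1 library left out, the log2 fold change ranged from -0.33 to 0.70 for PLAU, -0.32 to 0.65 for C10orf55 and -2.39 to 0.32 for SERPINB4. The cause of these changes was not tested. Of 318 values of single genes under an alternative, 250 kept their direction and their side of the threshold. The block changed the call of no other member than PLAUR and SERPINE2. LRP1 and SERPINB3 have no value at a mean of at least 50 counts, since that filter removed them. At this depth a gene such as SERPINB2 could not be compared.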
